A study of Mus musculus with 2 samples.

Results

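The miR-106b-25 and miR-106a-363 clusters and miR-92b are relatives of the miR-17-92 polycistron, and 10 microRNA genes make them up, of 1973 gene rows measured in the embryonic mouse limb. The members were taken by gene symbol: Mir106b, Mir93 and Mir25, which lie together in the gene Mcm7, then Mir106a, Mir18b, Mir20b, Mir19b-2, Mir92-2 and Mir363, which lie together on chromosome X, and Mir92b, which stands alone on chromosome 3. The study sequenced small RNA, below 30 nucleotides in size, from limbs of B6NCrl mouse embryos at 12.5 days of development. No treatment or engineered allele is given in the labels, and male and female embryos were pooled. There is 1 group with 2 biological replicates, replicate 1 from a pool of 88 embryos and replicate 2 from a pool of 68. No conditions can be compared within a single group, and the data give levels, the spread between both pools and the relations among the genes, without a p-value.

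Replicate 1 held 4525636 counts on microRNA genes and replicate 2 held 3604284, which were 42.5% and 37.0% of the reads in the tables. Levels are given as CPM (counts per 1000000 gene counts on the gene's own strand) and as mean ± SD over the replicates (n = 2) unless a library is named. Reads that mapped to several places, 27.2% of the reads in replicate 1 and 23.7% in replicate 2, were set apart in the tables and belong to no gene. Defining microRNAs of limb tissue were present in both libraries, with Mir196b of the HoxA cluster at 93461 and 80201 CPM, cartilage Mir140 at 24621 and 23178, and ectodermal Mir205 at 7488 and 7318. Of the microRNAs of other tissues looked up, endocrine Mir375 stood at 1511 ± 143 CPM, Mir223 of white blood cells at 275 ± 52.0, Mir451a of red blood cells at 174 ± 54.4 and liver Mir122 at 15.0 ± 2.8. The neural genes Mir9-2, Mir124a-1, Mir124a-2 and Mir124a-3 had 0 counts, but each makes a mature sequence that other genomic copies also make, whose reads would map to several places, so these zeros bound no level.

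A microRNA is cut from a hairpin in a longer transcript and guides the silencing complex to messenger RNAs through its seed, bases 2 to 8 from its 5′ end. The miR-17-92 polycistron is known as a promoter of cell proliferation and survival, and its loss causes skeletal and digit defects in mouse and human. The miR-106b-25 and miR-106a-363 clusters arose from it by duplication, and in mouse the loss of either alone is tolerated, whereas loss of miR-106b-25 together with miR-17-92 is lethal in the embryo. Members that share a seed are expected to bind overlapping sets of target messenger RNAs.

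All 10 members were found in the RefSeq table (GRCm38.p6), and each carried 1 of 4 seeds. The mature sequences below are those with the family seed, 5′ to 3′, with the seed in capitals. Members that share a seed differ outside it.
miR-106b-5p (Mir106b): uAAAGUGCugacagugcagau
miR-93-5p (Mir93): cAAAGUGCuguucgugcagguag
miR-106a-5p (Mir106a): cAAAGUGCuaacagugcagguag
miR-20b-5p (Mir20b): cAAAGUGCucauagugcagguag
miR-18b-5p (Mir18b): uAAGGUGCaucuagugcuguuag
miR-19b-3p (Mir19b-2): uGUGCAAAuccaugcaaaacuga
miR-25-3p (Mir25): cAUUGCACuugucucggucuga
miR-92a-3p (Mir92-2): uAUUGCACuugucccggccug
miR-363-3p (Mir363): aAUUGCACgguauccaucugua
miR-92b-3p (Mir92b): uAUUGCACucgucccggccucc
Mir106b, Mir93, Mir106a and Mir20b share the seed AAAGUGC with miR-17-5p and miR-20a-5p. Mir25, Mir92-2, Mir363 and Mir92b share the seed AUUGCAC. Mir18b has the seed AAGGUGC of miR-18a-5p and Mir19b-2 the seed GUGCAAA of the miR-19 family.

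The counts cover whole hairpins, and which arm of a hairpin gave the reads was not measured. The members' 19 mature sequences in the RefSeq table were searched against its 1005 hairpins and against the 141767 transcripts of GENCODE M21. For 8 of the 10 members the mature sequence above occurred in 1 hairpin only. The exceptions were Mir19b-2, whose miR-19b-3p is also made from Mir19b-1, and Mir92-2, whose miR-92a-3p is also made from Mir92-1, both copies lying in the miR-17-92 polycistron. Reads of these mature sequences alone would map to both places. The hairpins around the identical sequence, which is in capitals here, show where a longer read becomes distinct.
Mir92-1: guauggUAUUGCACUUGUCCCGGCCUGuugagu
Mir92-2: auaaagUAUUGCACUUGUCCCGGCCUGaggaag
Mir19b-1: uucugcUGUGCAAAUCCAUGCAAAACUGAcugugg
Mir19b-2: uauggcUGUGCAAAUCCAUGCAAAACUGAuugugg
The Mir92 hairpins were identical over 22 bases, and the Mir19b hairpins over 25, and in both pairs the first base after the 3′ end of the mature sequence differed. The levels of Mir19b-2 and Mir92-2 are therefore levels of assignable reads, and the part lost to reads that map to several places was not measured.

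Together the 10 members held 3.16% of the gene counts in replicate 1 (95% Clopper-Pearson interval 3.15 to 3.18) and 2.80% in replicate 2 (2.78 to 2.82). These intervals cover only counting error, as PCR copies of a molecule are counted more than once. The Mcm7-hosted cluster made up nearly all of this. It held 2.73% ± 0.29 of the gene counts, the Mir106a to Mir363 cluster 0.170% ± 0.0089, and Mir92b 0.0820% ± 0.0401. Of the 10 members 9 reached 10 CPM in both libraries and were called detected, as were 14.5% of all gene rows, and Mir19b-2 lay at the threshold. In whole limbs, fewer cells that make a microRNA and less of it per cell cannot be told apart.

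**Figure D1:**
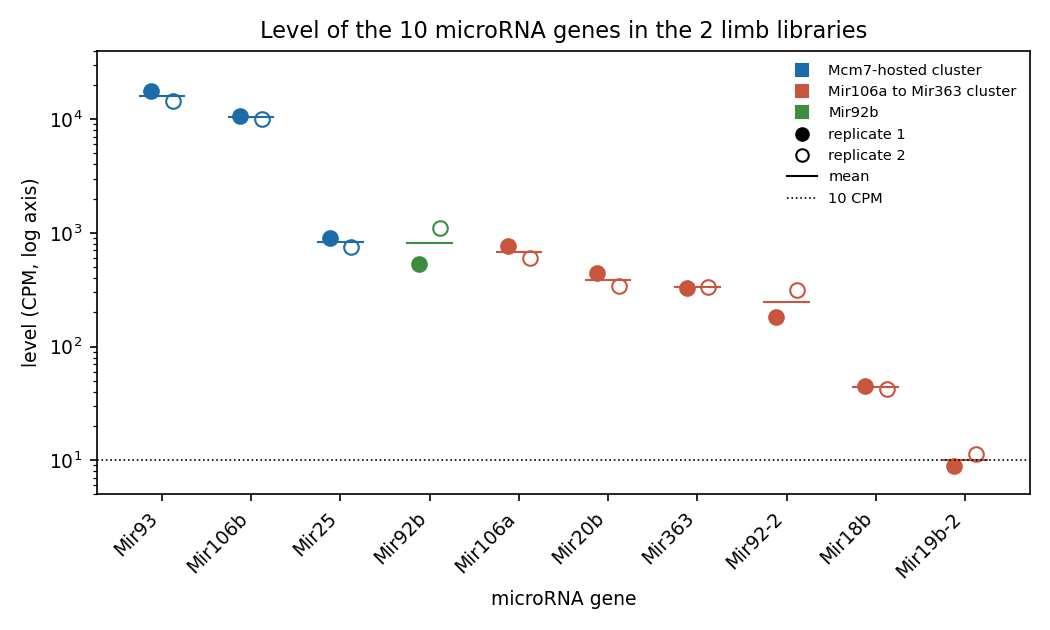
The level of each member in CPM on a log axis, with replicate 1 as filled and replicate 2 as open circles, the mean as a bar and the detection threshold of 10 CPM dotted. Mir93 and Mir106b stand at 10124 CPM or more in both libraries, the other members at 1104 CPM or less, and Mir92b and Mir92-2 show the widest gaps between the libraries.

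The Mcm7-hosted cluster was led by Mir93 and Mir106b, both with the miR-17 seed. Mcm7 encodes a subunit of the helicase that opens DNA for replication. The 3 hairpins lie on the minus strand of chromosome 5 within 498 bases, in introns of annotated Mcm7 transcripts, and in M21 an exon of 1 of the 10 transcripts also covers Mir93 and Mir25. Mir93 (chr5:138165523-138165610) stood at 17665 CPM in replicate 1 and 14373 CPM in replicate 2, a mean of 16019 ± 2327 that placed it 18th of all genes. Mir106b (chr5:138165737-138165818) stood at 10772 and 10124 CPM, a mean of 10448 ± 458 and the 22nd place. Mir25 (chr5:138165321-138165404), the only member of this cluster with the miR-92 type of seed, stood at 906 and 752 CPM, a mean of 829 ± 109 and the 105th place. The values of these genes did not overlap, and replicate 1 was the higher library for all 3.

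Within this cluster the proportions were close between the pools. Mir93 made up 60.2% of the cluster's counts in replicate 1 and 56.9% in replicate 2, Mir106b 36.7% and 40.1%, and Mir25 3.09% and 2.98%. The ratio of Mir93 to Mir106b was 1.64 in replicate 1 and 1.42 in replicate 2. Mir93 over Mir25 was 19.5 and 19.1, the steadiest of the 3 ratios, and Mir106b over Mir25 was 11.9 and 13.5. Hairpins of 1 cluster thus differed in read number by over 10 times in both libraries. How well each sequence is captured in the library was not measured, so these ratios compare reads and not molecules.

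The Mir106a to Mir363 cluster was present at a much lower level. Its 6 hairpins lie within 875 bases on the minus strand of chromosome X. In M21 the first of them, Mir106a, overlaps the exon of the non-coding transcript gene Kis2 by 5 bases, and the other 5 lie in no annotated gene. The Mcm7-hosted cluster had 16.6 times its assignable counts in replicate 1, and 15.4 times in the other library. Its summed level was 1766 and 1639 CPM, which is close between the libraries although its members moved in both directions.

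Mir106a (chrX:52742503-52742567), with the miR-17 seed, was the highest gene of the X-linked cluster at 763 and 599 CPM (681 ± 116). Mir20b (chrX:52742113-52742192), with the same seed, stood at 439 and 338 CPM (389 ± 72.0). The ratio of Mir106a to Mir20b was 1.74 and 1.77. Both were higher in replicate 1, and their values did not overlap.

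Mir363 (chrX:52741693-52741767) and Mir92-2 (chrX:52741838-52741928) carry the miR-92 type of seed at the 3′ end of the cluster. Mir363 stood at 328 and 334 CPM (331 ± 4.7), the smallest spread relative to its mean of all members at 1.42%. Mir92-2 stood at 181 and 314 CPM (248 ± 94.3). In assignable reads Mir363 lay above its neighbour in both libraries, with ratios of 1.81 and 1.06. Reads of miR-92a-3p alone would map to several places, so the full level of Mir92-2 against Mir363 was not measured. Mir363 has no counterpart in the Mir17hg or Mcm7-hosted clusters at its position after the Mir92 hairpin.

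Mir18b and Mir19b-2 were the lowest members in assignable reads. Reads of miR-19b-3p alone would map to several places, so the full level of Mir19b-2 was not measured. Mir18b (chrX:52742331-52742413) had 204 and 154 counts, or 45.1 and 42.7 CPM (43.9 ± 1.7). Mir19b-2 (chrX:52741983-52742066) had 40 and 41 counts, or 8.84 CPM and 11.4 CPM, the latter with an exact Poisson interval of 8.16 to 15.4 CPM that includes the detection threshold. Mir106a, separated from Mir18b by 89 bases of the same strand, had 16.9 and 14.0 times its counts.

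**Figure D2:**
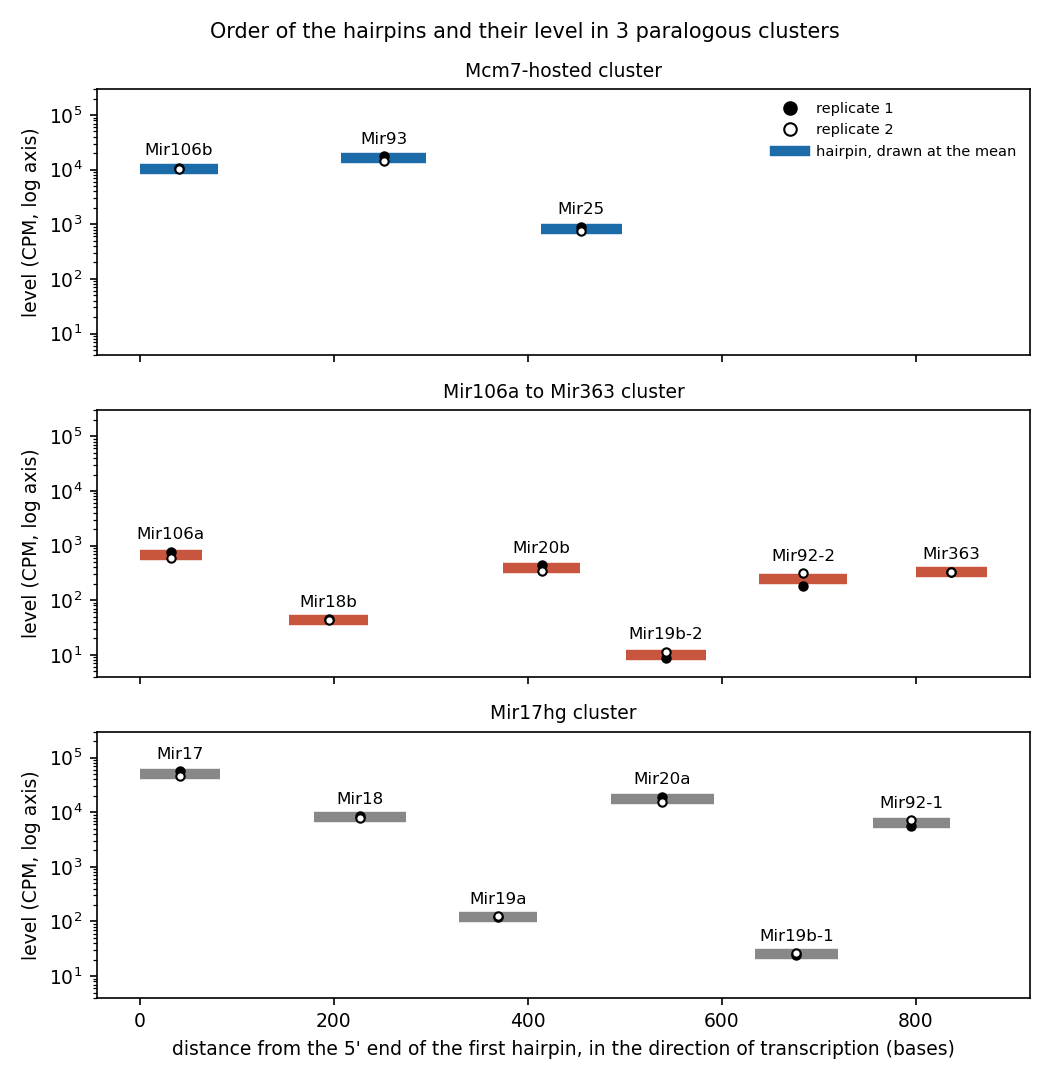
The hairpins of the Mcm7-hosted, Mir106a to Mir363 and Mir17hg clusters, placed by distance in bases from the 5′ end of the first hairpin and drawn at their mean level in CPM on a log axis, with replicate 1 as filled and replicate 2 as open circles. Among assignable reads, the Mir19b hairpin is the lowest point in the lower 2 panels and the first hairpin the highest. Reads of miR-19b-3p alone, which both Mir19b hairpins make, would map to both places.

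Mir92b (chr3:89227116-89227198, minus strand) overlaps no other gene in M21 and lies 278 bases past the end of Thbs3, a thrombospondin gene on the opposite strand, and 1858 bases before Muc1. It stood at 537 CPM in replicate 1 (exact Poisson interval 516 to 558) and 1104 CPM in replicate 2 (1070 to 1139), a mean of 820 ± 401. It was 117th among all genes in replicate 1 and 92nd in replicate 2. Mir92b had the widest spread relative to its mean of the members, 48.9%, followed by Mir92-2 at 38.1%, and the other 8 lay between 1.42% and 18.5%.

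The order of the members was Mir93, Mir106b, Mir25, Mir92b, Mir106a, Mir20b, Mir363, Mir92-2, Mir18b and Mir19b-2 from the highest mean to the lowest. The places of Mir25, Mir92b and Mir106a were not resolved across the libraries, since the values of Mir92b spanned those of its neighbours in the order. Within each library Mir25 lay above Mir106a, at 906 against 763 CPM in replicate 1 and 752 against 599 CPM in replicate 2. The other neighbours did not overlap. Mir20b and Mir363 were separated only by 338 against 334 CPM, and Mir363 and Mir92-2 only by 328 against 314. The places of Mir92-2 and Mir19b-2 are those of their assignable reads. An exact permutation test of 2 against 2 values cannot go below p = 0.33 (two-sided), so none was used. Counts are one per read of a short RNA and are not scaled by length, and per 100 bases of hairpin Mir106a moved above Mir25 while the other places outside that trio were kept.

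Among all genes, the direct neighbours of the members in mean level included relatives in 2 cases. Mir20a of the miR-17-92 polycistron was directly above Mir93, with a difference of 0.12 in mean log2 CPM over the 2 libraries, and Mir25 was directly above Mir92b, with a difference of 0.10. Mir106b lay between Mir351 and Mir652, at differences of 0.04 and 0.04. Mir34c, a microRNA induced by p53, was directly above Mir25 at 0.01. For Mir106a the gene above was Mir421 and the gene below Mir540, at 0.04 and 0.07. Mir20b had Mirlet7f-2 above at 0.09 and Mir125b-2 below at 0.01, and Mir363 had Mir155 above at 0.03 and Mir224 below at 0.05. Likeness here is of level only, since 2 libraries give no pattern across samples.

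Beside the miR-17-92 polycistron, hosted by Mir17hg on chromosome 14, the paralog clusters gave fewer of the assignable reads of every seed. For the miR-19 and miR-92 seeds this split by locus holds only among assignable reads. In summed counts the Mir17hg cluster stood at 3.05 times the Mcm7-hosted cluster in replicate 1 and 3.02 times in the other library, and at 50.7 and 46.4 times the X-linked cluster. Mir17 and Mir20a stood at 50945 ± 7438 and 17376 ± 2636 CPM, Mir18 at 8059 ± 500.0, Mir92-1 at 6319 ± 1081, Mir19a at 122 ± 4.8 and Mir19b-1 at 25.1 ± 1.8. Of the seed-mates elsewhere, Mir32, in an intron of Tmem245, stood at 236 and 184 CPM. Mir367 of the pluripotency cluster had 2 counts in replicate 1 and 0 in replicate 2, which is under the 3 counts that a count of 0 allows, or 0.663 CPM in replicate 1 and 0.832 CPM in replicate 2.

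Summed by seed over all genes of the RefSeq table with a row, the members gave 25.2% or more of 2 of the 4 families. For the miR-17 seed, the 4 members held 28.2% of the summed level in replicate 1 and 29.4% in replicate 2, of which the Mcm7-hosted Mir93 and Mir106b gave 27.1% and 28.3%. For the seed of miR-25 and miR-92, the 4 members held 25.2% and 25.6%. Their parts within it changed places between the libraries. Mir25 stood at 11.7% in replicate 1 and 7.69% in replicate 2, Mir92b at 6.93% and 11.3%, and Mir363 with Mir92-2 stood at 6.57% and 6.64%. For the miR-18 and miR-19 seeds the X-linked cluster gave 0.533% and 0.551%, and 5.83% and 6.96%. The 2 families whose mature sequence has a second copy, miR-19 and miR-92, are those in which assignable reads understate the level by an amount that was not measured.

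**Figure D3:**
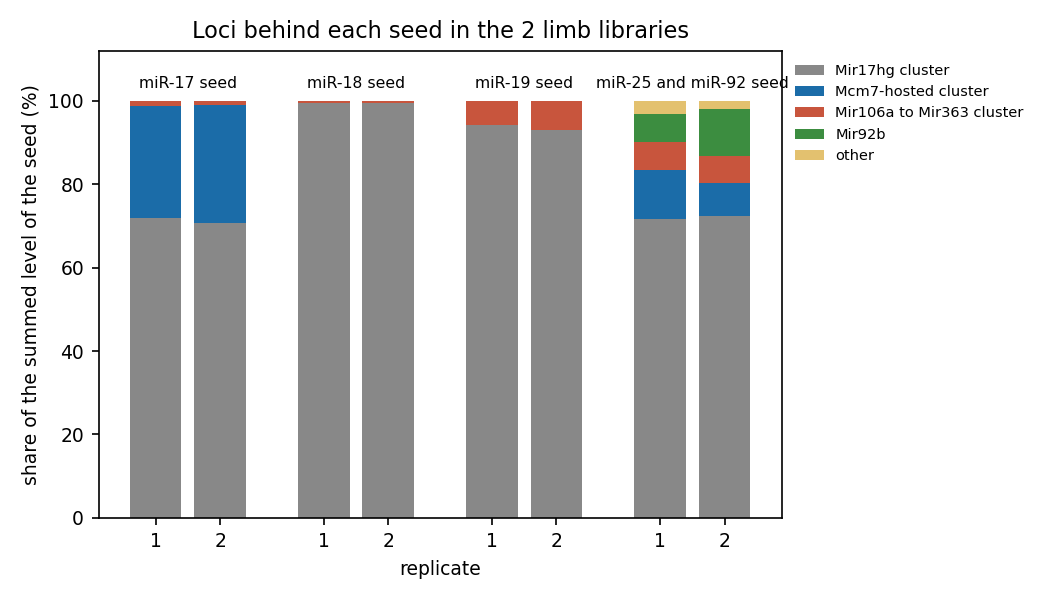
The share in percent of the summed level of each seed that came from each locus, as stacked bars for replicate 1 and replicate 2, with Mir32 and Mir367 as the other genes of the miR-25 and miR-92 seed. The Mir17hg cluster gives 70.6% or more of the assignable level of every seed in both libraries, and Mir92b is the part that differs most between the bars of its seed.

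All X-linked genes but Mir363 have a counterpart in the Mir17hg cluster, and 5 pairs can be compared. Mir106a stood at 1.36% of Mir17 in replicate 1 and 1.31% in replicate 2. Mir20b stood at 2.28% and 2.18% of Mir20a, and Mir18b at 0.536% and 0.555% of Mir18. Mir92-2 stood at 3.26% and 4.44% of Mir92-1, and Mir19b-2 at 37.0% and 43.2% of Mir19b-1, on few counts. The counts of the Mir19b pair are too few to show whether its ratio differed between the libraries, but in both it lay above those of the other pairs. For the Mir92 and Mir19b pairs these ratios cover assignable reads only, not the identical mature sequence as a whole. With positions counted from 1 at the 5′ end, miR-17-5p and miR-106a-5p differ by a single substitution, U10A, miR-20a-5p and miR-20b-5p by U1C and U10C, and miR-18a-5p and miR-18b-5p by A18U and A20U. Mir17 had 73.6 and 76.3 times the counts of Mir106a, and whether misread miR-17-5p entered the count of Mir106a was not tested.

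Between the libraries, 2 of the 8 members at 100 CPM or more in the mean differed by over 1.5 times, against 8.99% of the 189 genes at that level. Both were higher in replicate 2, as were 6.35% of those genes, and 0 members were past 1.5 times in favour of replicate 1, against 2.65% of those genes. Mir92b was 2.06 times as high in replicate 2, with a log2 ratio of 1.04 (counting SE 0.037), and ranked 1st of the 189 genes by this ratio. Mir92-2 was 1.74 times as high, with a log2 ratio of 0.80 (counting SE 0.066), and ranked 7th. The median log2 ratio was -0.18 for the 8 members and -0.01 for the 189 genes, of which the middle 50% lay between -0.20 and 0.17. These values compare both pools with 1 library on each side, so no test is attached.

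All 6 genes with reads and the miR-17 seed were higher in replicate 1, with log2 ratios of -0.38 for Mir20b, -0.35 for Mir106a, -0.31 for Mir20a, -0.30 for Mir17, -0.30 for Mir93 and -0.09 for Mir106b. The median of the 189 genes at 100 CPM or more was -0.01, so a ratio below 0 was common at that level. These miR-17 seed genes lie in 3 clusters, on chromosomes 5, 14 and X, and are not 6 separate cases. Mir106b lay apart from the others. Mir25 moved in the same direction as Mir93 and Mir106b of its own cluster. Within the seed of miR-25 and miR-92 the genes spread widely. Mir32 and Mir25 were lower in replicate 2, at -0.36 and -0.27, Mir363 was at 0.03, and the 3 genes of miR-92a and miR-92b were higher, at 0.35 for Mir92-1, 0.80 for Mir92-2 and 1.04 for Mir92b. Mir92-1 and Mir17 lie in the same host transcript but differed in direction, as did Mir92-2 and Mir106a in the X-linked cluster. Mir92-1 and Mir92-2 make an identical mature sequence but differed in the size of the ratio among assignable reads. Reads of that sequence alone would map to both places, so how its own level differed between the libraries was not measured. Over the 21 bases of miR-92a-3p, miR-92b-3p differs from it by U10C and G21C and miR-25-3p by U1C, C14U and C18U. Both miR-92b-3p and miR-25-3p are also 1 base longer. The miR-18 pair lay at -0.13 and -0.08 and the miR-19 genes at 0.08, 0.14 and 0.36, the last, Mir19b-2, with a counting SE of 0.32.

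**Figure D4:**
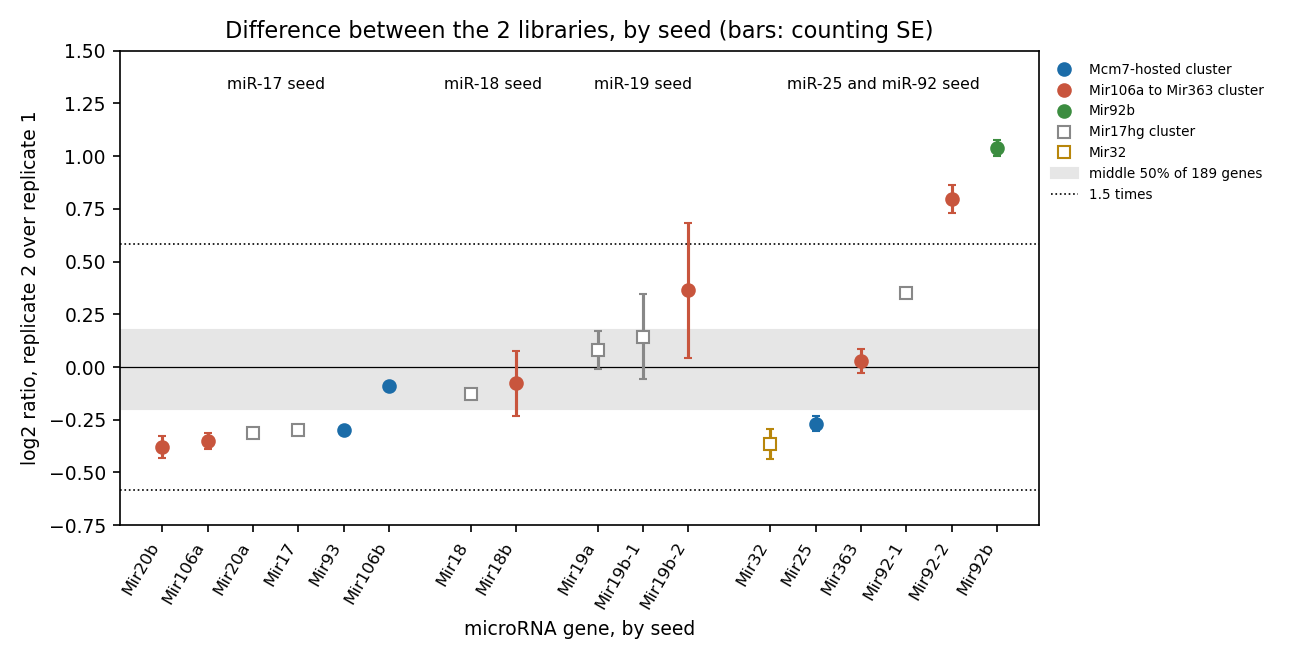
The log2 ratio of replicate 2 over replicate 1 for members (filled circles) and their relatives (open squares), grouped by seed, with counting SE as bars, the middle 50% of the 189 genes at 100 CPM or more as a grey band and 1.5 times as dotted lines. The miR-17 seed genes lie below 0 from all 3 clusters, and Mir92-2 and Mir92b lie above the upper dotted line.

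The libraries also differed in what the tables set apart, with 23.8% of the reads unmapped in replicate 1 and 32.6% in replicate 2 beside the shares that mapped to several places. The part of these differences in the ratios of Mir92b and Mir92-2 was not tested. The hairpin of Mir92b has the highest GC content of the members, 67.5%. That of Mir92-2, also higher in replicate 2, is 47.3%, and that of Mir25, lower in replicate 2, is 63.1%. The mature sequences rank otherwise, with 63.6% GC in miR-92b-3p, 57.1% in miR-92a-3p, 52.2% in miR-93-5p and 50% in miR-25-3p. Below these lay miR-106a-5p and miR-20b-5p at 47.8%, miR-18b-5p at 43.5% and miR-106b-5p at 42.9%. The lowest were miR-363-3p at 40.9% and miR-19b-3p at 39.1%. Whether GC content bears on the ratios between the libraries was not tested. On the strand opposite to the genes, the 10 members had 0 counts in both libraries.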

How the data were processed

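The authors deposited 1 table of whole-number counts per library, whose reads were placed on mm10 and counted over GENCODE M4, per the deposited README texts. The sources used here do not name the aligner, the counter, their versions or the trimming. In every gene row the first count column equalled the sum of the other 2, read as the gene's own and the opposite strand, and the own strand was used. The 4 rows that name no gene stayed out of the totals: they held 57.5% of the reads in replicate 1 and 63.0% in replicate 2. Identifiers were matched without version to GENCODE M21 (GRCm38, also called mm10), and 1894 of 1973 rows matched.

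The members, the paralog list and the comparisons were chosen with earlier results of these data known. The genes named are the 10 members, the Mir17hg cluster, Mir32 and Mir367, and the genes directly above and below each detected member in mean CPM. With 1 group of 2 libraries no test between conditions was possible. Log2 ratios had 0.5 counts added to each library, with a counting SE. Ratios past 1.5 times were counted at 100 CPM or more, a rule tried on simulated data. The simulation held counting error only and planted changes of 2 times either way, so it did not cover variation between pools. Copies of mature sequences were searched in the RefSeq table and in GENCODE transcripts in place of a genome. Alternatives were scaling by trimmed means (edgeR 4.0.16), by median of ratios (DESeq2 1.42.0) or by all reads, both strands, other thresholds, and each library alone, in R 4.3.3 and Python 3.11.15.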

Additional observations from a re-analysis of the deposited data

How the results depend on the processing

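The total used for scaling set the size of the shares. With all reads of the tables as the total, the Mcm7-hosted cluster held 1.09%, the Mir106a to Mir363 cluster 0.0679% and Mir92b 0.0318%, and the level of every member fell with them, since the total is larger. Without the members whose mature sequence has a second copy, Mir19b-2 and Mir92-2, the X-linked cluster held 0.144%. Leaving them out does not bound their reads that mapped to several places. At the lower fold tried, the members past it numbered 4 of 8 (28.0% of the 189 genes), and at a fold of 2 they were Mir92b alone, 1 of 8 (0.529%). In replicate 1 or 2 alone, the Mcm7-hosted cluster ranged from 2.52% to 2.93%, the X-linked cluster from 0.164% to 0.177%, Mir92b from 0.0537% to 0.110%, the ratio of the clusters from 15.4 to 16.6 and the members detected from 9 to 10. Of 50 levels of members recomputed without that larger total, 49 moved by less than the spread between the replicates, the exception being Mir363 over both strands, at 323 CPM. This count says little about stability. With 2 replicates, either library alone always lies within 1 SD of the mean, so those settings could not move. The trimmed-mean factors, 0.993 and 1.007, also left little room for change. Of 40 log2 ratios, 36 stayed within their 95% counting interval. The other 4 were Mir93 and Mir106b under trimmed-mean and median-of-ratios scaling, at -0.32 and -0.11 under each. Scaling moves the ratio of every gene by the same amount, and these genes had the smallest counting SE of the members, 0.008 and 0.010. They were therefore not less stable than the rest, and the added counts hardly moved any ratio. No direction of a difference past 1.5 times was turned by any of the settings run. Only Mir92b and Mir92-2 were past it, and median-of-ratios scaling left them at 1.02 and 0.77, so these settings could hardly have turned them. Mir106a lay 61.0 CPM per 100 bases above Mir25 by hairpin length, a setting chosen after seeing the data, against -148 CPM without it. No analysis pairing libraries across conditions was possible because the libraries form 1 group. The depth limits Mir19b-2, with 40 and 41 counts, and Mir367.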
